A study of Mus musculus with 48 samples.

Results

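Short RNA libraries from 2 mouse ganglia were examined for miR-219a and miR-338, microRNAs (miRNAs) known for their role in myelinating glia. The members were taken by name as miR-219a-5p, miR-219a-2-3p, miR-338-3p and miR-338-5p, which are 4 of the 1978 miRNA rows of the count table. The 48 libraries came from Balb/c mice aged 2.5 months, 24 from TG (trigeminal ganglia, which hold the sensory neurons of the face) and 24 from SCG (superior cervical ganglia, which hold sympathetic neurons). The mice received an intraperitoneal injection of saline alone (0.2 mL) or of saline with lipopolysaccharide (LPS) of Escherichia coli O55:B5 at 2.5 mg/kg, a bacterial cell wall component that causes systemic inflammation. Ganglia were taken 4 h, 24 h or 7 d later, with both ganglia of a kind from a mouse pooled, which gave 12 groups of 4 libraries (2 female, 2 male). The libraries of 1 group came from different mice, while a TG and an SCG library may come from the same mouse, which the labels do not tell. No genotype, transgene or sorted cell type is part of the design, and each library holds the RNA of all cells of the ganglia. In such bulk samples, fewer cells of a type and less RNA per cell cannot be told apart.

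A mature miRNA guides repression of transcripts that pair with its seed, the bases near its 5′ end, and its hairpin precursor can release a miRNA from either arm (5p or 3p). In the central nervous system, miR-219 and miR-338 accumulate as oligodendrocyte precursors stop dividing and begin to myelinate, and both repress transcripts that hold these cells in the precursor state. Peripheral axons are myelinated by Schwann cells instead, and ganglion neurons are wrapped by satellite glia. miR-338 is also known in neurons, including sympathetic neurons, where miR-338-3p represses a nuclear-encoded mitochondrial transcript in axons.

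Mature sequences of 3 of the 4 members were found in RefSeq for GRCm38.p6, together with that of miR-219a-1-3p, and are shown 5′ to 3′ because the seeds (bases 2 to 8, in capitals) set the miRNAs apart. miR-219a-2-3p is described by name.
mmu-miR-219a-5p: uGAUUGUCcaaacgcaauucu
mmu-miR-338-3p: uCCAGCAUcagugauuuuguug
mmu-miR-338-5p: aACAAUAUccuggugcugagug
mmu-miR-219a-1-3p: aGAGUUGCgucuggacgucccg
These 4 seeds differ from each other, and no seed was shared with another of the 1679 mature mouse miRNA names in that table.

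The hairpins are shown because miR-219a-5p can come from 2 of them, while each 3p arm belongs to 1. Capitals mark the mature miRNAs listed for each hairpin in RefSeq (GRCm38.p6, all on the minus strand).
Mir219a-1: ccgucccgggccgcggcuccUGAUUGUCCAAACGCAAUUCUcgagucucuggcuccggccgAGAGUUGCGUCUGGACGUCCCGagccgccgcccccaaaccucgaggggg
Mir219a-2: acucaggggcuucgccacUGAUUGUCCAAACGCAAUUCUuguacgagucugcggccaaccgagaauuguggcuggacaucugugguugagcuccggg
Mir338: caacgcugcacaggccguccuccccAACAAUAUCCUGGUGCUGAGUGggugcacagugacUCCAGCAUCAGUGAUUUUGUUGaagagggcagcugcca
The Mir219a-1 hairpin lies at chr17:34024983-34025092, in an exon of the long noncoding RNA gene Gm26940. Mir219a-2 lies at chr2:29845631-29845727 and overlaps no annotated gene but Mir219b on the opposite strand. Mir338 lies at chr11:120014765-120014862, in an intron of Aatk on the same strand, with 6 annotated transcripts of Aatk spanning it and none having an exon there. Aatk encodes a kinase of neural tissue. The same 21 bases of miR-219a-5p occur in both miR-219a hairpins, so its count cannot be assigned to either one.

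Total miRNA counts, the depth behind each value, ran from 1774047 to 5592766 in SCG (median 2916062) and from 2198180 to 5166995 in TG (median 4101287). Levels are given in CPM, counts relative to the library total, after scaling by the trimmed mean of M-values (TMM). Ligation favours some small RNAs over others, so a level is compared between libraries and not between miRNAs, except as a ratio followed across libraries. The labelled ganglia were checked with the sensory neuron cluster miR-183, miR-182 and miR-96, whose summed level was 57030 to 88270 CPM in TG and 221 to 21070 CPM in SCG, the highest SCG value being 24 h saline replicate 1. SCG 7 d LPS replicate 2 stood apart, with miR-9-5p at 230 CPM against 6209 CPM or more in the other SCG libraries, but with the highest brain-enriched sum of any SCG library (36320 CPM against 8691 to 18750 CPM), 35650 CPM of it miR-128-3p. Its leukocyte markers were at 9668 CPM against 288 to 757 CPM in the other SCG libraries. In TG 7 d saline, replicates 1, 2 and 4 stood apart, with summed brain-enriched miRNAs at 57490, 57330 and 52980 CPM against 30530 CPM in replicate 3. The main results that rest on these libraries are also given without them.

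All 4 members were higher in TG than in SCG, and the miR-219a arms differed far more than the miR-338 arms. After saline, the level of miR-219a-2-3p was 616 ± 533 CPM in TG and 19.3 ± 46.7 CPM in SCG (mean ± SD, n = 12 each). miR-338-3p was at 2259 ± 267 CPM in TG and 572 ± 117 CPM in SCG, and miR-338-5p at 5075 ± 675 and 1702 ± 276 CPM. miR-219a-5p, the arm whose targets were described in oligodendrocytes, held only 255 counts over the 12 TG libraries and 5 counts over the 12 SCG libraries. The plot of the level of each miRNA by group shows the 2 ganglia side by side.

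**Figure D1:**
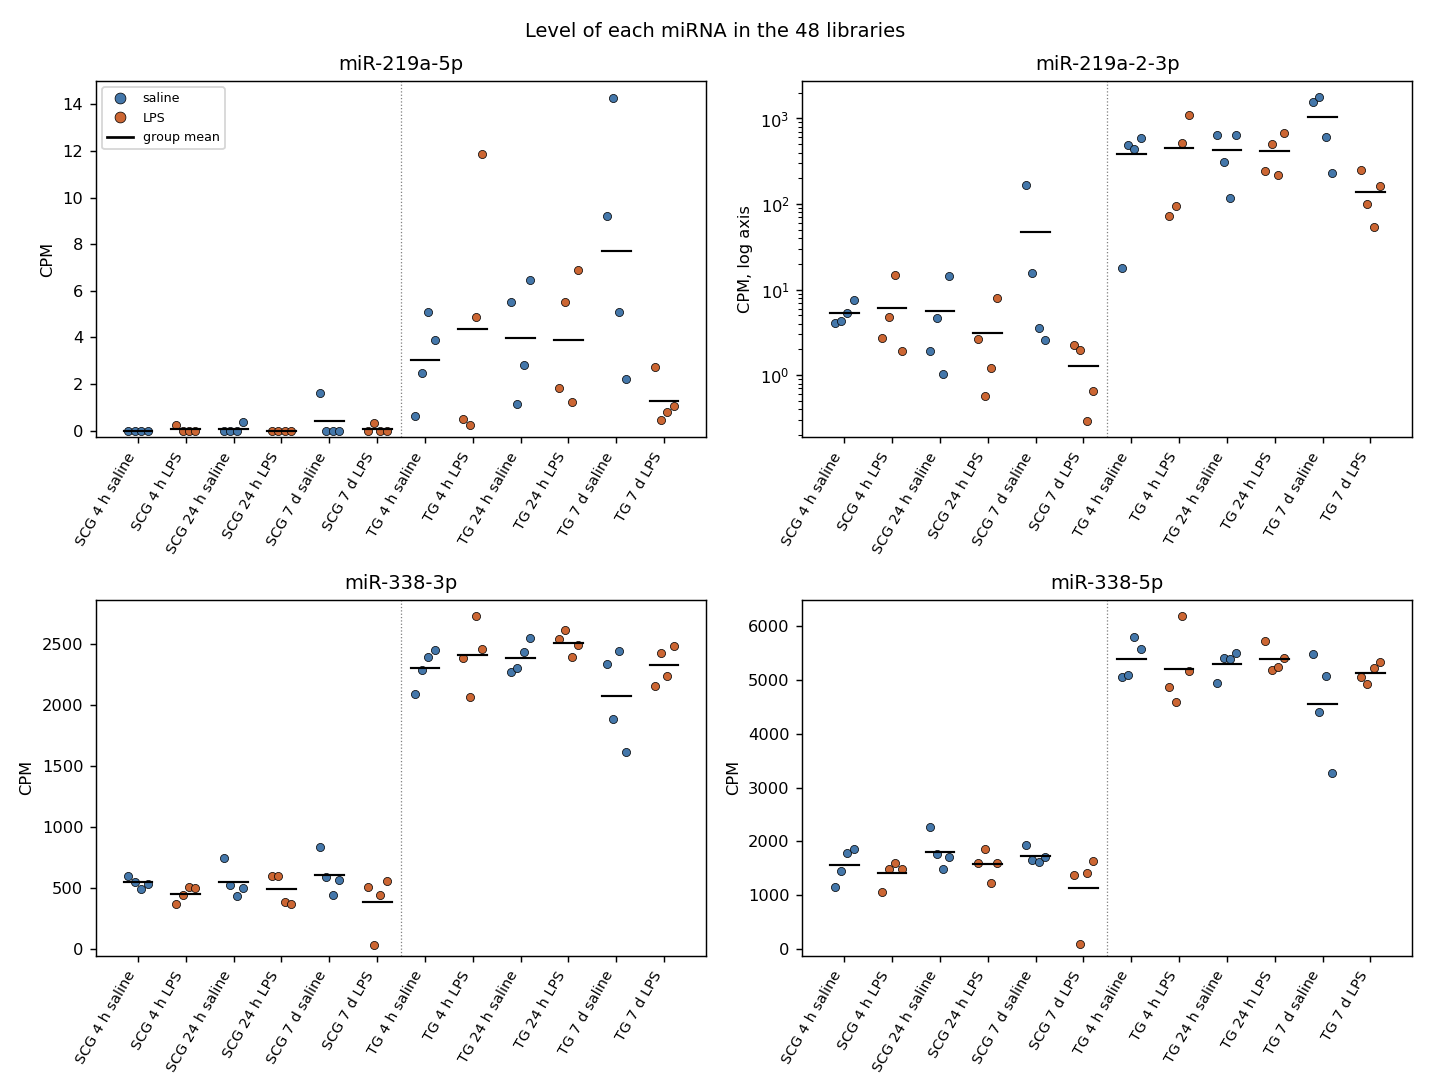
Level of miR-219a-5p, miR-219a-2-3p, miR-338-3p and miR-338-5p in CPM (vertical axes, log for miR-219a-2-3p) in the 12 groups of 4 libraries. Points are libraries in replicate order (blue saline, orange LPS) and bars are group means; miR-338-3p ran from 1621 to 2732 CPM in TG and from 38.1 to 840 CPM in SCG.

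miR-219a-2-3p, the 3p arm of Mir219a-2, ran from 17.95 to 1771 CPM over the 24 TG libraries, with a median of 375.5 CPM. In SCG it ran from 0.29 to 166.8 CPM, with a median of 3.13 CPM. The highest SCG library was 7 d saline replicate 1, with 417 counts, and all others lay at or below 15.7 CPM. The ganglia overlapped after saline, because 2 TG libraries lay below that SCG library, and did not overlap after LPS, with 53.4 CPM as the lowest TG and 14.7 CPM as the highest SCG level. How many of all miRNAs separate the ganglia without overlap was not counted. A lack of overlap is therefore not read as particular to a member, here or below.

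By edgeR's quasi-likelihood test, miR-219a-2-3p was 46.1-fold higher in TG after saline (log2 difference 5.53 ± 0.75 SE, adjusted p = 1.85e-06). After LPS it was 95.9-fold higher (6.58 ± 0.58, adjusted p = 4.91e-09). Without SCG 7 d saline replicate 1 the saline difference was 6.42 ± 0.65 on the log2 scale. Across all miRNAs, 66.4% of 541 were called in this comparison after saline, 31.4% as higher in TG. After LPS, 51.6% of 560 were called, 24.3% as higher in TG. A call by itself was therefore common, and the median log2 difference over all miRNAs tested was 0.00 after saline and -0.11 after LPS.

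miR-219a-5p was listed at 0 in 20 of the 24 SCG libraries, and the 4 others held 4, 1, 1 and 1 counts. Every TG library had at least 1 count, the highest being 76 counts (14.3 CPM) in 7 d saline replicate 2. Pooled over libraries, the level in TG was 39.1 times that in SCG after saline (95% exact interval 16.5 to 121) and 66.7 times after LPS (18.1 to 556), intervals that cover counting error only. Of the 5 SCG counts after saline, 4 came from 7 d saline replicate 1. Without that library the ratio was 182 (32.4 to 7220), and the fitted log2 difference moved from 4.75 ± 0.61 to 6.11 ± 0.66. The edgeR test called it higher in TG after saline (adjusted p = 4.1e-07) and after LPS (adjusted p = 6.26e-06). It passed the filter on low counts through the TG groups alone, so a difference between ganglia was to be found once it was tested.

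miR-338-3p ran from 1621 to 2732 CPM over the 24 TG libraries (median 2399) and from 38.1 to 840 CPM over the 24 SCG libraries (median 512). The lowest SCG value came from 7 d LPS replicate 2, and the next lowest was 370 CPM. No SCG library reached a TG library, after saline or after LPS, a separation whose share over all miRNAs was not counted. The difference was 3.78-fold after saline (log2 1.92 ± 0.10, adjusted p = 1.27e-13) and 5.40-fold after LPS (2.43 ± 0.25, adjusted p = 5.19e-08) by edgeR. Without SCG 7 d LPS replicate 2 the difference after LPS was 2.32 ± 0.09.

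miR-338-5p, the other arm of the same hairpin, ran from 3273 to 6176 CPM in TG (median 5191) and from 98.95 to 2277 CPM in SCG (median 1607), again with no overlap. It was 2.83-fold higher in TG after saline (log2 1.50 ± 0.10, edgeR adjusted p = 3.56e-12) and 3.83-fold higher after LPS (1.94 ± 0.25, edgeR adjusted p = 1.18e-06). Both miR-338 arms spread little between TG libraries, with a coefficient of variation of 10.3% for miR-338-3p and 10.7% for miR-338-5p. For miR-219a-2-3p it was 95.1% in the same libraries, and its highest TG level was 98.6 times its lowest.

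Ordered by mean level, all 6 TG groups lay above all 6 SCG groups for each member, an order not counted over all miRNAs. Within TG, miR-338-3p group means ran only from 2075 ± 386 CPM (7 d saline) to 2515 ± 92.8 CPM (24 h LPS), and each pair of neighbours in that order differed by less than the larger of their SDs. miR-219a-2-3p was highest in TG 7 d saline (1041 ± 741 CPM) and lowest in TG 7 d LPS (140 ± 83.7 CPM). The other 4 TG groups lay between 382 and 448 CPM, with SDs of 219.4 to 482 CPM, and could not be ordered beyond that spread. Within SCG, group means ran from 390 ± 240 to 612 ± 164 CPM for miR-338-3p and from 1.30 ± 0.97 to 47.2 ± 80.0 CPM for miR-219a-2-3p.

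The 3p arms of the 2 miR-219a hairpins did not follow each other. miR-219a-1-3p was at 5.48 ± 1.75 CPM over the 24 TG libraries and 5.43 ± 2.17 CPM over the 24 SCG libraries. Its log2 difference between TG and SCG was 0.11 ± 0.20 after saline (edgeR adjusted p = 0.644) and -0.17 ± 0.23 after LPS (edgeR adjusted p = 0.564), where miR-219a-2-3p differed by 5.53 and 6.58. Within a library, the median ratio of miR-219a-2-3p to miR-219a-1-3p counts was 86.6 in TG and 0.966 in SCG after saline. After LPS it was 42.9 and 0.474. The mean log2 ratio differed by 5.75 and 6.75 (permutation test, p = 1e-05, the smallest that the permutations can give, adjusted p = 4e-05 each, 8 comparisons of this ratio).

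The remaining miRNAs of these loci were close to absent. miR-219b-5p, miR-219b-3p, miR-219c-3p and miR-3065-3p held between 0 and 3 counts over the 24 libraries of either ganglion. miR-219c-5p held 30 counts in SCG and 35 in TG, and miR-3065-5p, antisense to miR-338, held 34 and 19.

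The contrast between the 2 families was taken inside each library, where it needs no scaling between libraries. The median ratio of miR-338-3p to miR-219a-2-3p was 4.44 in TG (range 1.07 to 116) and 114 in SCG (5.03 to 360) after saline. After LPS it was 10.7 in TG (2.24 to 41.9) and 216 in SCG (18.1 to 1020). The mean log2 ratio thus differed by -3.96 and -3.99 between TG and SCG (permutation test, adjusted p = 0.00024 and 0.00016, 8 comparisons), although the ranges overlapped. This ratio was chosen after the data were seen, since miR-219a-5p was near 0 in SCG. With miR-219a-5p in its place, the difference was -2.11 after saline (adjusted p = 0.00185) and -0.84 after LPS (adjusted p = 0.343) with 0.5 added to each count. Adding 5 turned both signs, to 0.43 and 1.37.

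The arms of miR-338 also stood in a different ratio in the 2 ganglia. The median ratio of miR-338-3p to miR-338-5p was 0.445 in TG and 0.314 in SCG after saline, with overlap because of SCG 4 h saline replicate 1 (0.520) and SCG 7 d saline replicate 1 (0.433). The first of these also had the highest summed muscle miRNAs of all SCG libraries, at 94270 CPM, whose part in its ratio was not tested. After LPS it was 0.460 in TG (0.428 to 0.507) and 0.331 in SCG (0.232 to 0.386), without overlap. The mean log2 ratio differed by 0.42 after saline (permutation test, adjusted p = 0.0006) and by 0.50 after LPS (adjusted p = 8e-05), over 8 comparisons. The plot of ratios within libraries shows all 3 ratios by group.

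**Figure D2:**
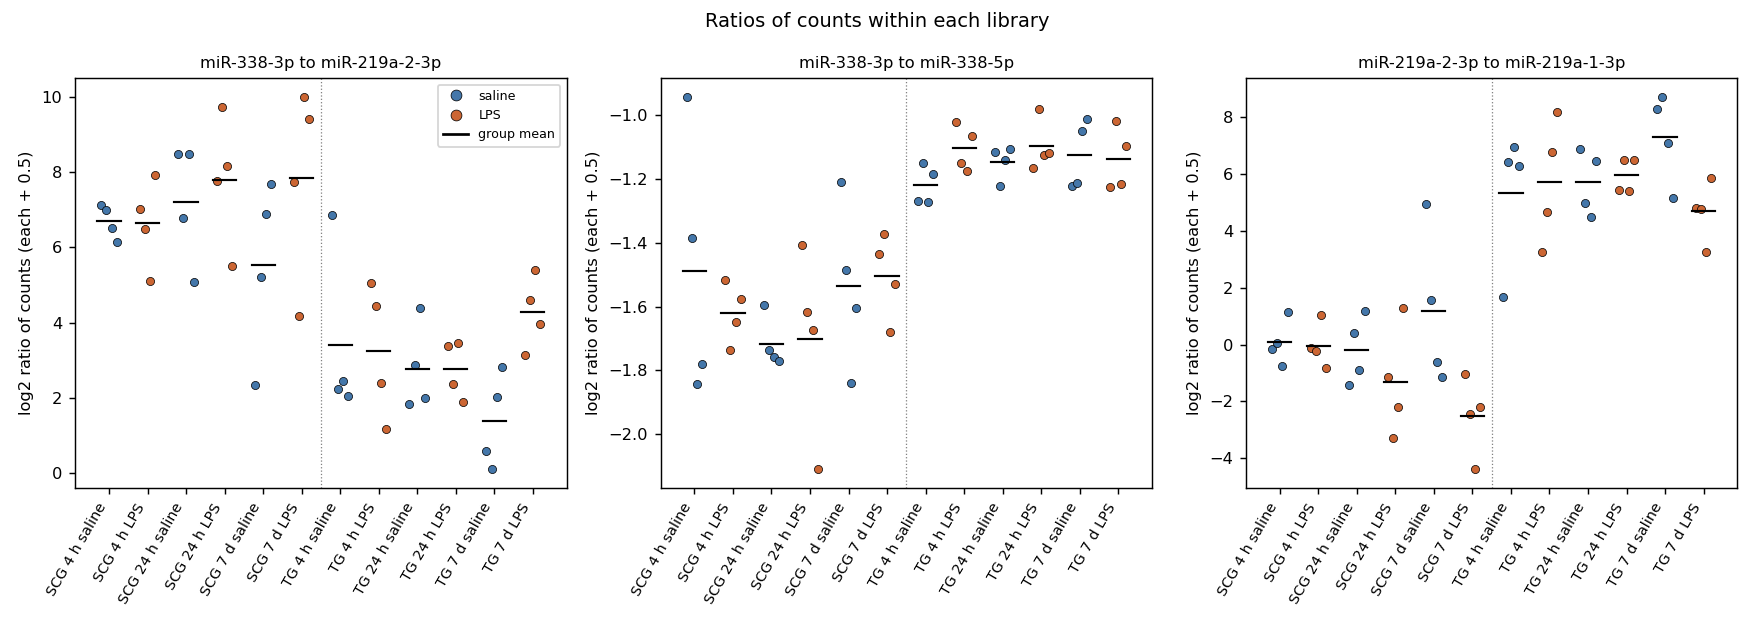
Log2 ratio of counts within each library (0.5 added to each count, vertical axes) for miR-338-3p to miR-219a-2-3p, miR-338-3p to miR-338-5p and miR-219a-2-3p to miR-219a-1-3p in the 12 groups. Points are libraries and bars are group means; at 7 d in TG the median ratio of miR-338-3p to miR-219a-2-3p was 2.47 after saline and 19.5 after LPS.

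LPS was compared with saline at each time to ask whether the glial miRNAs changed during inflammation. By edgeR, 0 of the members tested (3 in SCG, 4 in TG) were called at 4 h, at 24 h or at 7 d in either ganglion. At an unadjusted p under 0.05 there were 0 at 4 h and 24 h, 1 at 7 d in SCG and 2 at 7 d in TG. DESeq2 likewise called 0 at 4 h and 24 h, and called 1 and 2 at 7 d. Over all miRNAs at 7 d, 20.4% in SCG and 23.0% in TG had an unadjusted p under 0.05, and DESeq2 called 40 of 506 and 54 of 538. In SCG, 0% of 506 miRNAs were called at 4 h (13 at unadjusted p under 0.05, 1 by DESeq2), 0.395% at 24 h and 0.593% at 7 d. In TG, 0% of 538 were called at 4 h (15 at unadjusted p under 0.05, 2 by DESeq2), 0.372% at 24 h and 6.13% at 7 d. At 24 h, 24 miRNAs in SCG and 23 in TG had an unadjusted p under 0.05, and DESeq2 called 7 and 3.

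At 4 h in TG, miR-219a-2-3p was at 17.95, 486, 438 and 588 CPM in the saline libraries and at 72.0, 95.7, 522 and 1101 CPM in the LPS libraries. At 24 h it was at 639, 313, 117 and 634 CPM after saline and 244, 507, 219.4 and 677 CPM after LPS. The groups overlapped throughout, and the log2 difference was 0.21 ± 0.95 and -0.05 ± 0.94 (edgeR adjusted p = 0.9995 and 0.998). An SE of this size leaves a large difference at these times undetectable. miR-338-3p was measured far more tightly, at 0.07 ± 0.10 and 0.08 ± 0.10, and miR-338-5p at -0.04 ± 0.10 and 0.03 ± 0.10.

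At 7 d in TG, miR-219a-2-3p was at 1559, 1771, 604 and 231 CPM in the saline libraries and at 247, 98.9, 53.4 and 160.5 CPM in the LPS libraries. Of the saline libraries, 3 lay above every LPS library, and replicate 4 lay just below the highest LPS library. The log2 difference was -2.93 ± 1.01 and did not pass the threshold (edgeR adjusted p = 0.0847). DESeq2 gave -2.93 ± 0.88 with adjusted p = 0.0133. Leaving out 1 library at a time gave edgeR adjusted p values from 0.0593 to 0.189. With no filter on low counts edgeR gave 7.75e-83 from the same libraries. That value lies far from every other setting and is not taken as support for a difference.

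miR-219a-5p showed the same order at 7 d in TG, with 42, 76, 20 and 7 counts after saline and 13, 2, 3 and 4 counts after LPS. Its log2 difference was -2.63 ± 0.87 (edgeR adjusted p = 0.0714), and it was called without TG 7 d saline replicate 3 (adjusted p = 0.0402). DESeq2 gave an adjusted p of 0.0161, and leaving out 1 library at a time with edgeR gave 0.0402 to 0.215. The miR-338 arms did not share this difference in level. miR-338-3p was at 2343, 1893, 2444 and 1621 CPM after saline and 2157, 2426, 2244 and 2488 CPM after LPS, which overlapped, and differed by 0.17 ± 0.10 (edgeR adjusted p = 0.298). miR-338-5p differed by 0.18 ± 0.10 (edgeR adjusted p = 0.337).

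Inside the libraries, the ratio of miR-338-3p to miR-219a-2-3p at 7 d in TG was 1.50, 1.07, 4.04 and 7.02 after saline and 8.74, 24.5, 41.9 and 15.5 after LPS. The groups did not overlap. The mean log2 ratio differed by 2.89, with an exact permutation p of 0.0286, the smallest that 4 against 4 libraries allow, and an adjusted p of 0.0762. With miR-219a-5p it differed by 2.64 (exact permutation p = 0.0286, adjusted p = 0.0714, 5 comparisons). Against TG 7 d saline replicate 3 alone these differences were 2.26 and 2.09, and against the 8 saline libraries taken at 4 h and 24 h they were 1.18 and 1.33, values with no test.

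The estimate of this difference at 7 d varied with the saline libraries used, a change that was not tested. The 7 d saline group in TG had miR-219a-2-3p at 1041 CPM on average, against 382 and 426 CPM in the saline groups of 4 h and 24 h. This difference between saline groups was 1.44 ± 0.81 on the log2 scale (edgeR adjusted p = 0.258). The comparison called 13.6% of all miRNAs and 0 of the 4 members (1 at unadjusted p under 0.05, miR-338-5p, and 0 by DESeq2). Over all miRNAs in it, 28.4% had an unadjusted p under 0.05 and DESeq2 called 15.8%. The libraries of TG 7 d saline that held more brain-enriched miRNAs included both with the highest miR-219a-2-3p. Replicates 1, 2 and 4 had miR-9-5p at 22760, 21490 and 20470 CPM and miR-135a-5p at 104, 111 and 139 CPM. Replicate 3 had 13580 and 18.6 CPM. Not every miRNA of the list was raised. miR-137-3p was at 62.8, 67.5 and 59.3 CPM in replicates 1, 2 and 4 and at 67.2 CPM in replicate 3. miR-708-5p was at 54.7, 57.3 and 62.8 CPM against 51.9 CPM, with at most 55.15 CPM in the TG libraries outside this group. Its other arm, miR-708-3p, was at 202, 206 and 290.5 CPM against 89.3 CPM. All 11 brain-enriched miRNAs were detected in both groups at 7 d, with the summed level at 30530 to 57490 CPM after saline and 28970 to 31190 CPM after LPS. The summed sensory neuron miRNAs were at 57030 to 73830 CPM after saline and 71780 to 82640 CPM after LPS. The part of these levels in the miR-219a difference was not tested.

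Within the group, replicate 4 was as high in brain-enriched miRNAs as replicates 1 and 2 but held 231 CPM of miR-219a-2-3p, below the 604 CPM of replicate 3. Without replicates 1, 2 and 4, which left 1 saline library whose spread was taken from the rest, the 7 d log2 difference was -1.71 ± 1.41 for miR-219a-2-3p and -1.43 ± 1.24 for miR-219a-5p (edgeR adjusted p = 0.985 each). With the 8 saline libraries taken at 4 h and 24 h as the control it was -1.48 ± 0.88 and -1.33 ± 0.84 (edgeR adjusted p = 0.892 each).

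In SCG at 7 d, miR-219a-2-3p was at 167, 15.7, 3.56 and 2.57 CPM after saline and at 2.28, 1.95, 0.29 and 0.66 CPM after LPS. The groups did not overlap, but the LPS libraries held only 10, 6, 1 and 2 counts. The mesenchyme sum (miR-143-3p, miR-145a-5p, miR-199a-3p and miR-214-3p) also separated these groups, at 17740, 46640, 34510 and 33860 CPM after saline and 104300, 99380, 81530 and 50160 CPM after LPS. Over the 24 SCG libraries its Pearson r with miR-219a-2-3p was -0.429 and Spearman rho -0.396 (permutation test, adjusted p = 0.08 and 0.11), and r was -0.348 without 2 libraries. Its part in the difference was not tested. The log2 difference was -5.07 ± 1.28 (edgeR adjusted p = 0.0867), and without the saline library at 167 CPM it was -2.45 ± 0.99 (adjusted p = 0.405). DESeq2 called it (adjusted p = 0.000224), as did edgeR without the sex term (adjusted p = 0.044), without saline replicate 3 (adjusted p = 0.0333), without saline replicate 4 (adjusted p = 0.0319) and without LPS replicate 1 (adjusted p = 0.044). Without LPS replicate 2 the adjusted p was 0.363. The saline library at 167 CPM also had miR-135a-5p at 21.6 CPM against 2.57 to 8.49 CPM in all other SCG libraries. Its summed sensory neuron miRNAs were at 6813 CPM against 856 to 1173 CPM in its 3 group mates. SCG 24 h saline replicate 1 had a higher sensory neuron sum, 21070 CPM, but only 1.93 CPM of miR-219a-2-3p. The part of these miRNAs in the miR-219a level of the 7 d library was not tested.

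miR-338-3p in SCG at 7 d was at 840, 592, 450 and 565 CPM after saline and 512, 38.1, 444 and 565 CPM after LPS. miR-338-5p was at 1943, 1655, 1611 and 1719 CPM after saline and 1384, 98.95, 1424 and 1631 CPM after LPS. The log2 differences were -0.63 ± 0.46 and -0.65 ± 0.45 (edgeR adjusted p = 0.435 and 0.415). Without LPS replicate 2 they were -0.19 ± 0.20 and -0.21 ± 0.17 (adjusted p = 0.678 and 0.594). LPS replicate 2 had 707 counts of miR-9-5p and 11 of miR-124-3p, miRNAs of neurons. miR-128-3p was higher there than in the other SCG libraries, at 35650 CPM (others at most 6039). So were miR-708-5p at 100.6 CPM (at most 50.5) and miR-708-3p at 317 CPM (at most 220.5). The rest of the brain-enriched list was lower there or, for miR-135a-5p (5.21 CPM), within the range of the others. miR-9-3p was at 13.35 CPM (others at least 276.5), miR-137-3p at 0.651 (at least 108.4) and miR-153-3p at 0.98 (at least 28.27). miR-384-5p was at 0.651 CPM (at least 41.05) and miR-344-3p at 2.60 CPM (at least 77.36). The library also had summed muscle miRNAs of 35370 CPM and epithelial and pituitary miRNAs of 10980 CPM. Their part in the low miR-338 level was not tested.

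At the earlier times in SCG, miR-338-3p differed by -0.29 ± 0.45 at 4 h and -0.15 ± 0.45 at 24 h, and miR-338-5p by -0.17 ± 0.44 at both. miR-219a-2-3p differed by 0.16 ± 1.11 and -0.74 ± 1.14, from 8 to 24 and 3 to 41 counts per saline library and 6 to 44 and 2 to 30 counts per LPS library. The plot of LPS effects shows these estimates with their SE.

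**Figure D3:**
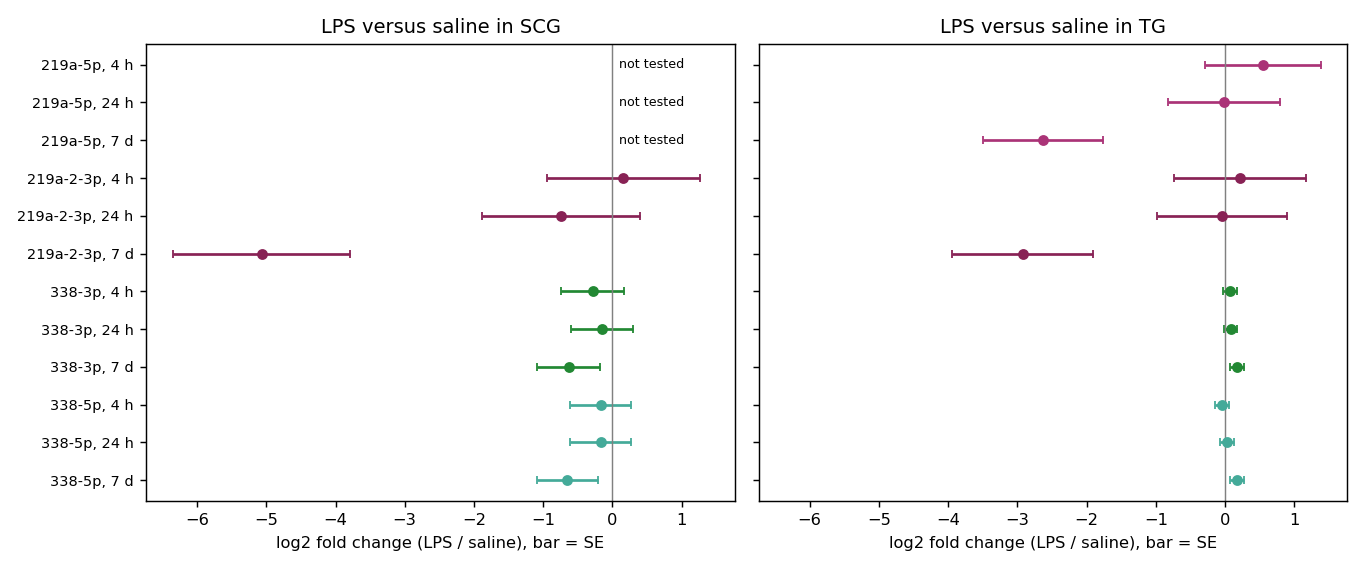
Log2 fold change of LPS against saline (horizontal axes, bar = SE) for each member at 4 h, 24 h and 7 d in SCG and TG. The miR-338 points in TG lie within 0.18 of 0, while the miR-219a-2-3p points at 7 d lie at -5.07 in SCG and -2.93 in TG, none past the edgeR threshold.

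The LPS effect was also compared between times, ganglia and sexes. Its change over the 3 times called 0 members in SCG (0% of all miRNAs, 21 at unadjusted p under 0.05, 0 by DESeq2) and 0 in TG (1.49% of all miRNAs) by edgeR. At unadjusted p under 0.05 there was 1 member in each ganglion, miR-219a-2-3p in SCG and miR-219a-5p in TG, and DESeq2 called 0. Over all miRNAs in TG, 13% had an unadjusted p under 0.05 and DESeq2 called 3.72%. The difference between the LPS effect in TG and in SCG called 0 of 4 members at each time by edgeR, 0 at unadjusted p under 0.05 and 0 by DESeq2, where 0%, 0% and 1.39% of 577 miRNAs were called at 4 h, 24 h and 7 d. Over all miRNAs there were 22 at 4 h, 20 at 24 h and 134 at 7 d with an unadjusted p under 0.05. DESeq2 called 0, 6 and 67. The saline libraries of 7 d differed from those of 4 h and 24 h in SCG for 0 of 3 members (1 at unadjusted p under 0.05, miR-219a-2-3p; 0 by DESeq2) and 0% of all miRNAs by edgeR (22 at unadjusted p under 0.05, 0 by DESeq2). Between females and males 0 members were called in SCG (0.988% of all miRNAs, 71 at unadjusted p under 0.05, 25 by DESeq2). In TG 0 were called (0% of all miRNAs, 24 at unadjusted p under 0.05, 0 by DESeq2). Both ganglia had 0 members at unadjusted p under 0.05 and 0 by DESeq2.

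From library to library in TG, the miR-219a arms moved together, as did the miR-338 arms. Over 24 TG libraries, log2 CPM of miR-219a-2-3p and miR-219a-5p correlated with Pearson r = 0.888 and Spearman rho = 0.928 (permutation test, adjusted p = 0.00011 each, 11 relations). Without the 2 libraries farthest from the median of miR-219a-2-3p, r was 0.923. miR-338-3p and miR-338-5p correlated with r = 0.879 and rho = 0.682 (permutation test, adjusted p = 0.00011 and 0.00084), and r was 0.653 without 2 libraries. Products of 1 hairpin share their precursor, and all points share library depth and scaling.

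Between the families, miR-219a-2-3p and miR-338-3p gave r = 0.159 and rho = 0.275 in TG (permutation test, adjusted p = 0.56 and 0.42), and 0.032 without 2 libraries. With group means subtracted r was 0.446 (permutation p = 0.031). With no group means subtracted, r was 0.551 (permutation p = 0.00928) once replicates 1, 2 and 4 of TG 7 d saline were left out. The relation in TG thus rested on which libraries were used. In SCG, r was 0.238 and rho 0.153 (permutation test, adjusted p = 0.26 and 0.52, 10 relations), and 0.081 without 2 libraries. The miR-338 arms in SCG gave r = 0.960 and rho = 0.626 (permutation test, adjusted p = 0.0002 and 0.0075), with r = 0.585 without 2 libraries and 0.619 without 7 d LPS replicate 2 alone.

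Against the marker sums, miR-219a-2-3p in TG was lower where the sensory neuron miRNAs were higher. Pearson r was -0.659 and Spearman rho -0.683 over the 24 TG libraries (permutation test, adjusted p = 0.0016 and 0.00084), r was -0.527 without 2 libraries (permutation p = 0.012) and -0.522 with group means subtracted (permutation p = 0.0095). With replicates 1, 2 and 4 of TG 7 d saline left out, which held low sensory neuron sums, r was -0.684 and rho -0.713 over 21 libraries (permutation p = 0.00052 and 0.00047). TG 4 h saline replicate 1 had both the lowest miR-219a-2-3p (17.95 CPM) and the highest sensory neuron sum (88270 CPM). With the brain-enriched sum, r was 0.314 and rho 0.094 (permutation test, adjusted p = 0.26 and 0.77), and r was 0.434 without 2 libraries. Its r with the epithelial and pituitary sum was -0.170 and with the mesenchyme sum 0.092 (permutation test, adjusted p = 0.56 and 0.71). Over the 24 SCG libraries the relation of miR-219a-2-3p to the sensory neuron sum had the other sign and passed no threshold. There r was 0.381 and rho 0.369 (permutation test, adjusted p = 0.12 and 0.13), and r was 0.223 without 2 libraries.

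For miR-338-3p in TG, r was -0.562 and rho -0.230 with the brain-enriched sum (permutation test, adjusted p = 0.025 and 0.44), and r was -0.023 without 7 d saline replicates 2 and 4, on which it rested. In SCG, r of miR-338-3p with the brain-enriched sum was -0.551 and rho 0.508 (permutation test, adjusted p = 0.084 and 0.04). Without 7 d LPS replicate 2 the sign of r turned, to 0.846. The mesenchyme sum gave negative values with miR-338-3p in SCG, with r = -0.417 and rho = -0.661 (permutation test, adjusted p = 0.08 and 0.0061), r = -0.58 without 2 libraries and r = -0.626 without that library. With group means subtracted r was -0.287 (permutation p = 0.18). That sum ran from 13930 to 182000 CPM over the SCG libraries.

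**Figure D4:**
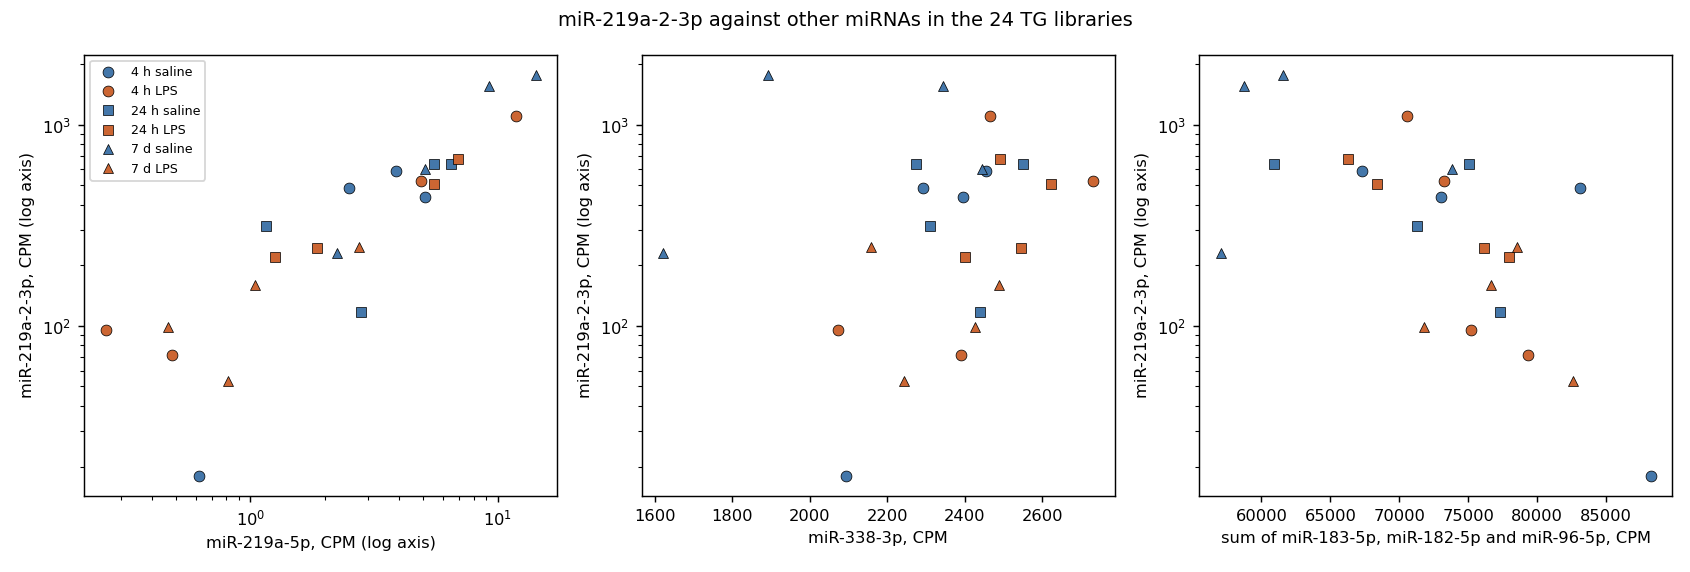
miR-219a-2-3p (vertical axes, CPM, log) in the 24 TG libraries against miR-219a-5p (CPM, log), miR-338-3p (CPM) and the summed sensory neuron miRNAs (CPM). Colours mark treatment and shapes mark time; Pearson r on log2 CPM was 0.888, 0.159 and -0.659.

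The miRNAs whose levels were most like those of the members were ranked by Spearman rho of log2 CPM over the 24 libraries of a ganglion, among 534 other miRNAs in TG and 503 in SCG, as a description. For miR-219a-2-3p in TG they were miR-181b-5p (0.900), miR-181a-5p (0.871), miR-1249-3p (0.778), miR-615-3p (0.761) and miR-708-3p (0.756), the last of which is also on the brain-enriched list. For miR-219a-5p they were miR-181b-5p (0.849), miR-181a-5p (0.757), miR-1249-3p (0.723), miR-151-5p (0.710) and miR-708-3p (0.682), so 4 of 5 were shared by the miR-219a arms. The most opposite miRNA was miR-409-3p for both, at -0.808 and -0.784. Without TG 7 d saline replicates 1, 2 and 4, miR-181b-5p and miR-181a-5p stayed first for both arms (0.871 and 0.860 for miR-219a-2-3p, 0.803 and 0.716 for miR-219a-5p), and 3 and 4 of the first 5 were kept. For miR-338-3p in TG the list was another one: miR-26a-5p (0.813), let-7f-5p (0.783), miR-32-5p (0.663), miR-6952-3p (0.659) and miR-574-3p (0.623). Of these, 3 were among the first 5 without the same libraries, when miR-181b-5p (0.600) entered the list. In SCG, miR-338-3p was most like miR-149-5p (0.830), miR-129-5p (0.744), miR-9-5p (0.718), miR-376b-5p (0.694) and miR-124-3p (0.689), and let-7f-5p was the most opposite, at -0.687. miR-219a-2-3p in SCG was most like miR-23b-5p, at only 0.607.

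A list of 20 other miRNAs with known roles in myelinating or peripheral glia set the members beside their functional neighbours. Of the 18 list members tested in SCG and the 20 tested in TG, 0 were called for LPS at 4 h, 24 h or 7 d by edgeR and 0 by DESeq2. At an unadjusted p under 0.05 there were 2 at 4 h and 2 at 7 d in SCG, 4 at 7 d in TG and 0 otherwise. At 7 d this was 11.1% of the list in SCG and 20.0% in TG, no more than the 20.4% and 23.0% of all miRNAs, while at 4 h in SCG it was 11.1% against 2.57%. In these comparisons the list's median log2 difference lay between 0.01 and 0.11. Between ganglia, 9 of 19 tested were higher in TG and 5 lower after saline (median 0.23). After LPS 7 were higher and 6 lower (median 0.27), so the list did not move in 1 direction. The share called by edgeR was 73.7% of the list after saline and 68.4% after LPS, against 66.4% and 51.6% of all miRNAs. Such calls were thus common outside the list too.

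Among those higher in TG after saline were miR-34a-5p, which restrains the Schwann cell cycle (29.6-fold, log2 4.89 ± 0.41, edgeR adjusted p = 9.26e-10), and miR-204-5p, a miRNA of peripheral glia (2.14-fold, 1.10 ± 0.12, edgeR adjusted p = 2.48e-08). miR-32-5p, which acts on myelin protein expression in oligodendrocytes, was 1.70-fold higher (0.77 ± 0.09). miR-7a-5p, of early oligodendrocyte specification and also of neuroendocrine cells, was lower in TG (log2 -2.41 ± 0.27, edgeR adjusted p = 7.44e-08). miR-145a-5p, which is also on the mesenchyme list, was lower too (-1.88 ± 0.29). The homologous pairs split, with miR-27b-3p higher (0.46 ± 0.05) and miR-27a-3p lower (-0.46 ± 0.07) in TG, and miR-23b-3p higher (0.34 ± 0.12) and miR-23a-3p lower (-0.40 ± 0.16).

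In TG saline, 7 d differed from the earlier times for 3 of the 20 (15.0%), close to the 13.6% of all miRNAs. miR-212-3p was higher by 2.37 ± 0.74 on the log2 scale, miR-32-5p lower (-0.29 ± 0.09) and miR-140-5p lower (-0.17 ± 0.06), with edgeR adjusted p = 0.0372, 0.0372 and 0.0475. With replicates 1, 2 and 4 of TG 7 d saline left out they were 1.03 ± 1.48, 0.06 ± 0.13 and -0.07 ± 0.10, and edgeR called 0 of the 20 and 0 of all 593 miRNAs tested (0 and 19 at unadjusted p under 0.05). The members' own values in that comparison were 1.44 ± 0.81 for miR-219a-2-3p, 1.30 ± 0.66 for miR-219a-5p, -0.17 ± 0.08 for miR-338-3p and -0.22 ± 0.09 for miR-338-5p (edgeR adjusted p = 0.258, 0.193, 0.179 and 0.106). The libraries that stood apart in brain-enriched miRNAs are 3 of the 4 in that 7 d group, and without them the members differed by 0.30, 0.16, 0.02 and -0.12.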

How the data were processed

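Short RNA was measured in 48 libraries. The values are raw counts per mature miRNA deposited by the authors, made from reads of a ligation kit with 140 ng RNA input per the labels' protocols. FastQC 0.11.9 and GRCm39 are named per the submitters' processing notes, while an aligner or counter is not given in the sources used here. Of 1978 rows, 85 name several precursors (38.6% of counts), miR-219a-5p among them. Totals were 1774047 to 5592766 counts, and Poisson-based intervals at 95% cover counting error only. Columns were matched to samples by title, and groups were taken from the treatment label, since 1 title and 1 column spell LPS as PS. No replicate pair was within sampling noise (lowest chi-square per degree of freedom 22 over 72 pairs).

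Counts were tested with edgeR 4.0.16 (R 4.3.3): TMM scaling, the filterByExpr filter (minimum count 10), robust quasi-likelihood F-test, Benjamini-Hochberg over all miRNAs tested and a threshold of 0.05. LPS, time and sex were fitted over the 24 libraries of a ganglion with 6 groups and sex, ganglia over 24 saline or 24 LPS libraries with time and sex, and differences of LPS effects over 48. The SE of an edgeR log2 difference was derived as its absolute value divided by the square root of F, since the test gives none. The scripts were tested on simulated data. Within-library ratios and correlations used 100000 permutations, or all 70 assignments for 4 against 4 (scipy 1.17.1). Alternatives were DESeq2 1.42.0, its size factors, no filter, no sex term, only the 8 libraries of a time, other saline controls, a pseudocount of 5 and leaving out libraries. The ratios to miR-219a-2-3p and miR-219a-1-3p, the correlations with marker sums, the likeness list of miR-219a-2-3p and leaving out TG 7 d saline replicates 1, 2 and 4 or, for correlations, SCG 7 d LPS replicate 2, other saline controls for the ratios and the pooled ratio without SCG 7 d saline replicate 1 were chosen after seeing the data.

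The members and lists were chosen with earlier results of these data known. Named are the 4 members, the other miRNAs of their loci, some members of the glial list past the threshold, the 5 miRNAs most like a member, and summed marker lists (brain-enriched, sensory neuron, muscle, epithelium and pituitary, leukocyte, erythroid, mesenchyme). Of the glial list, miR-184-3p, miR-30d-5p, miR-340-5p, miR-138-5p and miR-125a-3p also passed between ganglia after saline and are named only here. Glial list members past the threshold between ganglia after LPS were counted but not named. The most opposite miRNAs are named outside that rule, after their values were seen. Summed erythroid miRNAs were 488 to 2551 CPM in SCG and 950 to 5816 CPM in TG. Hairpin positions and sequences are from RefSeq and gene annotation from GENCODE, both on GRCm38, not the build of the counts. tRNA fragment counts were not used here.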

Additional observations from a re-analysis of the deposited data

Results flagged for a closer look

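Within groups of 4 libraries, 42 sets of values were searched for a library set far apart from its group, which chance alone gives in about 1 of 20 sets, and 2 were found. miR-219a-2-3p in SCG 7 d saline replicate 1 was at 166.8 CPM, with a gap to the next library of 0.92 of the group's range. miR-338-5p in SCG 7 d LPS replicate 2 was at 98.95 CPM, with a gap of 0.839 of the range.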

How the results depend on the processing

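miR-219a-2-3p, miR-338-3p and miR-338-5p were called higher in TG than in SCG under every alternative run. So was miR-219a-5p, but it passed the filter only through its TG counts, so its calls say nothing about stability. Over the alternatives, the log2 differences of the members and miR-219a-1-3p kept their direction and side of the threshold in 658 cases, 23 reversed and 16 passed the threshold. No paired analysis was possible because the labels give no replicate numbers and do not say which libraries share a mouse. The number of members called for LPS at 7 d was 1 in SCG with DESeq2, with no filter and with no sex term, and 2 in TG with DESeq2 and with no filter. With no filter it was also 1 for the LPS effect by time and for 7 d against earlier saline in SCG, 2 for both in TG, and 1 for the LPS effect in TG minus SCG at 7 d. Calls with no filter are not taken as support, since that setting gave a far smaller adjusted p than the others at 7 d in TG. Leaving out 1 library gave 0 to 1 at 7 d in SCG and in TG and for 7 d against earlier saline in TG. The last had miR-338-5p at edgeR adjusted p = 0.0255 without TG 7 d saline replicate 1 and miR-338-3p at 0.0366 without replicate 3. The TG 4 h difference of miR-219a-2-3p was -0.44 with only the 8 libraries of that time. The TG 7 d difference was -0.0228 for miR-338-3p without TG 7 d saline replicates 1, 2 and 4, and -0.0448 for miR-338-5p with the earlier saline libraries as control. For 7 d against earlier saline in TG, miR-338-3p was 0.0241 without those replicates. The TG to SCG difference in the ratio of miR-338-3p to miR-219a-5p was 0.43 after saline and 1.37 after LPS with a pseudocount of 5. The cause of these changes was not tested. Leaving out 1 library at a time, miR-219a-2-3p ranged from -0.92 to 0.47 at 4 h and -2.02 to 0.66 at 24 h in SCG, and from -0.72 to 0.61 and -0.40 to 0.27 in TG. miR-219a-5p ranged from -0.58 to 0.97 at 4 h and -0.39 to 0.34 at 24 h in TG. At 24 h in SCG, miR-338-3p ranged from -0.25 to 0.0559 and miR-338-5p from -0.28 to 0.0414, and miR-338-5p in TG from -0.0162 to 0.048. For 7 d against earlier saline in SCG they ranged from -0.0446 to 0.28 and -0.0568 to 0.17. The ratio of miR-338-3p to miR-219a-5p between ganglia after LPS ranged from -1.28 (permutation adjusted p = 0.0355, without SCG 7 d LPS replicate 2) to -0.60, and that of miR-338-3p to miR-338-5p at 7 d in TG from -0.0535 to 0.0235. Depth limits miR-219a-5p in SCG, where 7 counts in 24 libraries allow no test of LPS.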
